A study of Homo sapiens with 3 samples.

Results

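The genes described here make ribosomes or are driven by the transcription factor MYC. Ribosome biogenesis starts in the nucleolus, where RNA polymerase I transcribes the ribosomal RNA precursor, small nucleolar ribonucleoproteins modify it, and a long series of assembly factors fold and cut it into the small and the large subunit. MYC, a transcription factor that pairs with MAX, is known to raise the transcription of many of these genes together with genes of polyamine synthesis and the cell cycle, and the whole programme is usually high in growing carcinoma cells. Nm23-H2, the product of NME2, is also known under the name PuF as a protein that binds a regulatory element of the MYC promoter.

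The members were chosen by name, as 38 genes of ribosome biogenesis and MYC targets, and a gene counted when the array had a probe set annotated to it alone. Of the 38, 29 had such a probe set and are described below, out of 11963 genes on the array with a probe set of their own. BOP1, DKC1, EIF4A1 and PPAN were represented only by probe sets shared with a small RNA or a read-through gene, and DDX18, EBNA1BP2, GNL3, LYAR and NOB1 had no probe set listed for them alone, so these 9 were not analysed here. The 29 genes had 46 probe sets, and 11 of them had more than 1.

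The cells were CAL 27, an established line derived from a poorly differentiated (grade G3) squamous cell carcinoma of the tongue. The nm23-H1 cells were stably transfected with pEGFP-nm23-H1 and carried Nm23-H1 joined to EGFP, a green fluorescent protein. The nm23-H2 cells were stably transfected with pEGFPC1-nm23-H2, and the vector cells with the empty vector, so that they made the fluorescent protein alone. All 3 were grown in the same medium with serum, and each was represented by 1 Affymetrix array. The design text speaks of clones for nm23-H1 and of a clone for the vector and does not mention nm23-H2, so construct and transfected clone cannot be told apart. No group was replicated, so no p-value was computed and the differences below describe these 3 arrays.

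The deposited signals had medians of 29.6, 29.0 and 26.5 on the nm23-H1, nm23-H2 and vector arrays. They were scaled to a common trimmed mean and set to a floor of 28.3 signal units, the pooled median, and 7986 genes were above that floor on at least 1 array. As a measure of error, genes with several probe sets gave the spread of their log2 differences, called the probe error here. Its SD was 0.33 (nm23-H1 against vector), 0.35 (nm23-H2 against vector) and 0.38 (nm23-H1 against nm23-H2). It covers neither cultures nor clones nor hybridisations. The NME1 probe set read 2379, 1132 and 1519 units on the nm23-H1, nm23-H2 and vector arrays, and that of NME2, which also matches the read-through transcript NME1-NME2, read 2323, 4845 and 2272, so each was highest on the array of its own construct. Of 11 squamous epithelium markers 8 had a probe set, and all 8 were above the floor on all 3 arrays, among them KRT5, a basal keratin, at 8543, 11699 and 9289 units. Their summed signal was 26505, 42532 and 31279 units, lowest with nm23-H1 and highest with nm23-H2, the order that 10 of the genes described here also had, and its part in the results was not tested. PTPRC, which marks leukocytes, and VWF and CDH5, which mark endothelium, were below the floor on all 3, while 3, 3 and 2 of 6 fibroblast markers were above it, with a summed signal of 286, 270 and 231 units. Of 4 leukocyte markers 2, 0 and 1 were above the floor, and of 3 endothelial markers 1, 0 and 1, with sums of 114, 35.2 and 64.5 units and 62.0, 31.3 and 46.4 units. The ratio of the 3' to the 5' probe set, a sign of RNA integrity, was 0.878, 1.04 and 0.881 for GAPDH and 1.41, 1.90 and 1.75 for ACTB on the nm23-H1, nm23-H2 and vector arrays, and its part in the results was not tested.

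All 29 genes were above the floor on all 3 arrays by the probe set used. Some of their other probe sets and some genes of the lists below were under the floor on an array, and a difference is then a lower bound on its size. The nm23-H1 array was the lowest of the 3 for 19 of the 29 genes (65.5%), against 24.4% of all 7986 genes. The nm23-H2 array was the highest for 15 (51.7%, against 28.9% of all genes), the vector array for 12 (41.4%, against 33.7%), and the nm23-H1 array for 2 (6.90%, against 37.3%). The nm23-H2 array was the lowest for 4 (13.8%, against 39.6%). Of the 7986 genes, 5956 were above the floor on all 3 arrays, and a tie at the floor left a gene with no lowest array. The shares of all genes by lowest array are therefore not strictly like for like with those of the 29. Of the 19 genes lowest with nm23-H1, 10 were highest with nm23-H2 and 9 were highest with the vector.

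**Figure D1:**
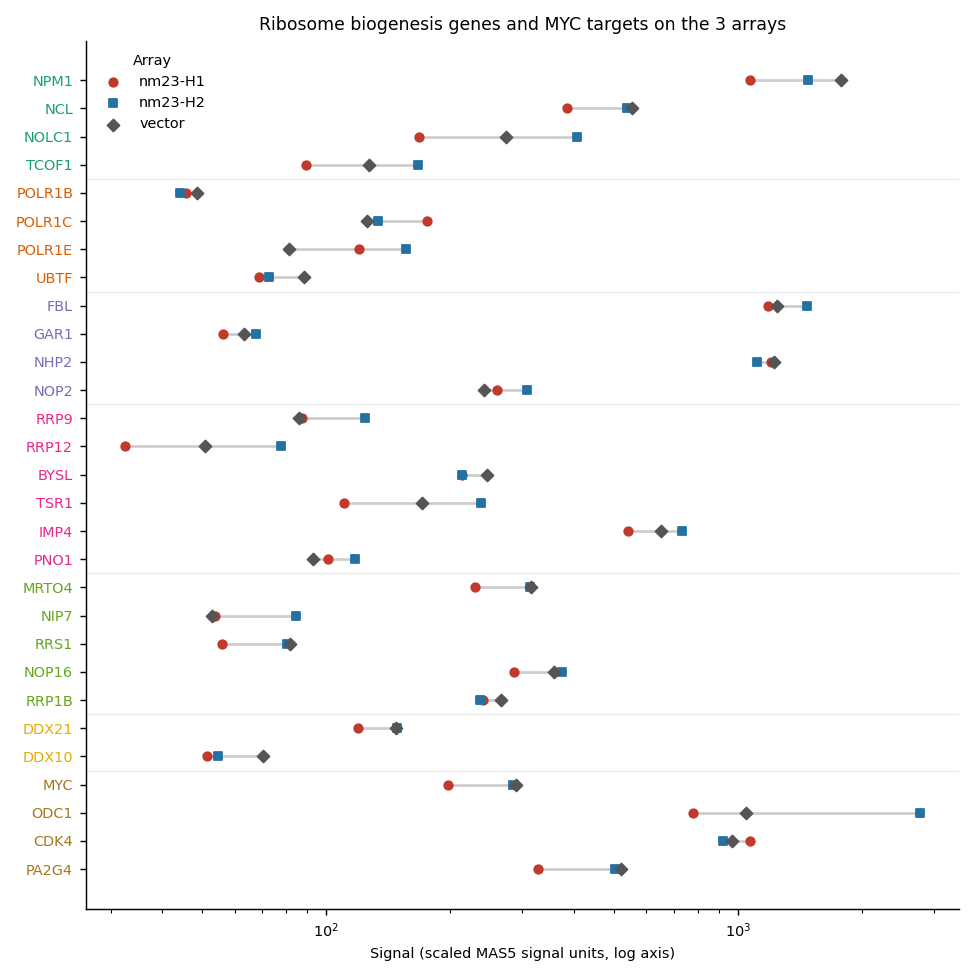
Signal of each of the 29 genes (scaled MAS5 signal units, log axis) on the nm23-H1 (circle), nm23-H2 (square) and vector (diamond) arrays, 1 array each, with genes grouped and coloured by role and a grey line spanning the 3 values. The circle is the leftmost mark for 19 of 29 genes. Positions of different genes cannot be compared, since their probe sets differ.

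Set against vector, the nm23-H1 array was lower for 22 of the 29 genes (75.9%), against 47.7% of all measured genes and 49.8% of those above the floor on all 3 arrays. It was higher for 7 (against 49.6%). The median difference was -0.31 (log2), and that of all measured genes was 0. No member reached 2-fold in either direction, where 2.14% of all genes were that much higher and 1.73% that much lower. At the smaller step of 1.5-fold, 5 members (17.2%) were lower, namely NPM1, NOLC1, PA2G4, RRP12 and TSR1, against 7.53% of all genes, and 0 were higher, against 8.63%. The median of the 29 was below that of all genes under each of the 10 other settings of scaling, floor and probe set, by 0.18 to 0.32.

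Set against vector, the nm23-H2 array gave a mixed picture. The median difference was 0.07, with 13 of 29 genes below 0 (44.8%, against 54.4% of all genes and 55.5% of those above the floor on all 3 arrays). That median was -0.02 when arrays were scaled to a common median above the floor and 0.40 with the values as deposited. Relative to the median of all genes, which was -0.06, the 29 stood 0.12 higher, and 0.05 to 0.22 higher under the other settings. ODC1 was the 1 member (3.45%) at least 2-fold higher, against 3.59% of all genes, and 0 were at least 2-fold lower, against 3.61%. At 1.5-fold, ODC1, POLR1E, NIP7 and RRP12 were higher (13.8%, against 10.6% of all genes) and 0 were lower (against 14.2%). The probe sets of RRP12 disagreed in sign, here and in the other comparisons, as described below.

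Both transfectants were compared with the same vector array, so the comparison of nm23-H1 with nm23-H2 adds no array. There 24 of 29 genes were lower with nm23-H1 (82.8%, against 39.3% of all genes and 43.8% of those above the floor on all 3 arrays), with a median of -0.38, against 0.08 for all genes. At least 2-fold lower were 4 members (13.8%), ODC1, NOLC1, RRP12 and TSR1, against 3.81% of all genes, and 0 were at least 2-fold higher, against 3.76%. At 1.5-fold, TCOF1, NIP7 and PA2G4 joined them (24.1%, against 10.6%), and 0 were higher (against 16.3%). With the mean of all probe sets of a gene only 1 of the 29, ODC1, was at least 2-fold lower, against 2.78% of all genes.

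**Figure D2:**
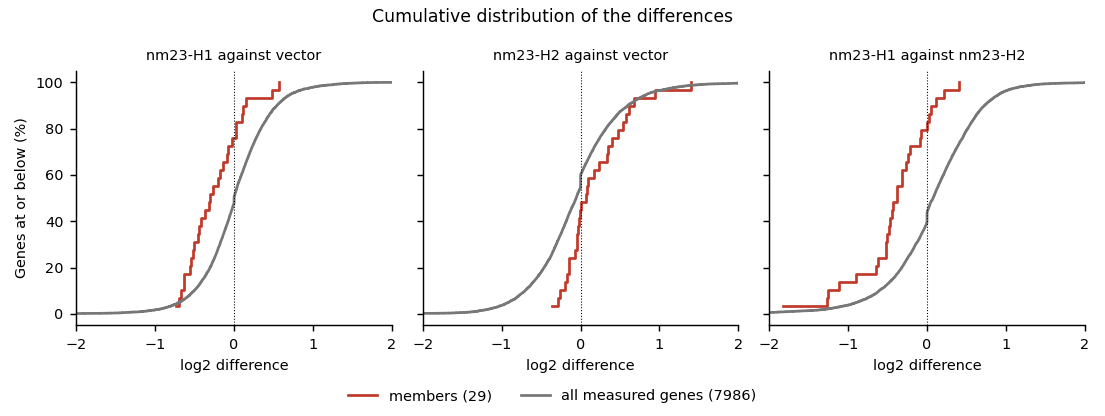
Cumulative share of genes (%) at or below each log2 difference for the 29 genes (red) and all 7986 measured genes (grey), in the 3 comparisons, with the axis cut at -2 and 2. The red curve lies left of the grey one in the panel of nm23-H1 against vector (medians -0.31 and 0) and in that of nm23-H1 against nm23-H2 (-0.38 and 0.08).

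**Figure D3:**
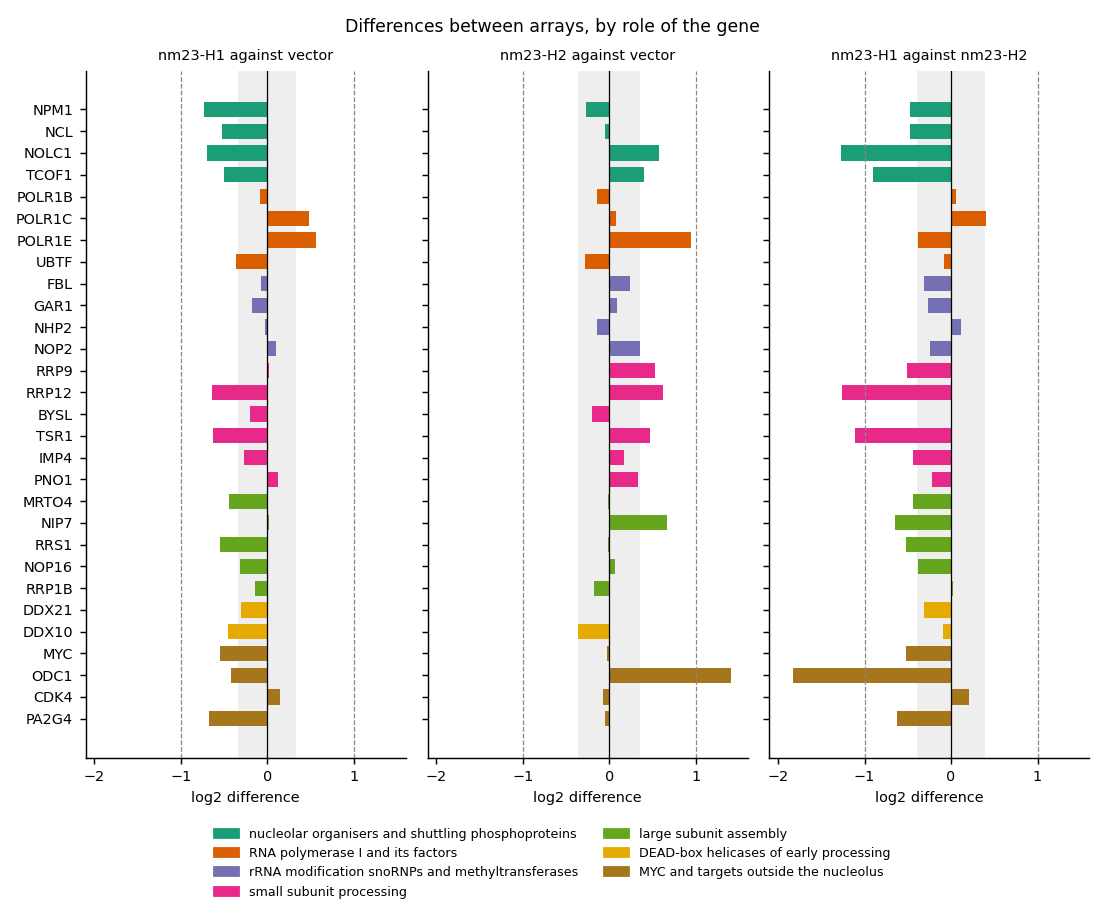
The log2 difference of each gene in the 3 comparisons, coloured by role, with the probe error (1 SD either side of 0, 0.33, 0.35 and 0.38) shaded and dashed lines at 2-fold. ODC1 passes the dashed line for nm23-H2 against vector, and ODC1, NOLC1, RRP12 and TSR1 pass it for nm23-H1 against nm23-H2.

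The proteins that organise the nucleolus were the role with the largest median difference between nm23-H1 and vector, -0.61 over 4 genes. All 4 were lower (against 47.7% of all genes). NPM1 encodes nucleophosmin, an abundant nucleolar chaperone of ribosomal proteins, and lies on chromosome 5 (171387116 to 171410900 in assembly GRCh38.p14). Its probe set read 1071 units with nm23-H1, 1485 with nm23-H2 and 1785 with the vector, so the nm23-H1 array was 1.67-fold below vector. The other 2 NPM1 probe sets also read lowest or nearly so with nm23-H1, at 952, 1126 and 1129 units and at 1284, 1246 and 1619 units on the same arrays, and their differences from vector were -0.25 and -0.34, near the probe error.

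NCL, nucleolin, which binds the ribosomal RNA precursor, read 385 units with nm23-H1, 537 with nm23-H2 and 554 with the vector, so the nm23-H1 array stood apart from the other pair (-0.53 against vector). NOLC1, a chaperone of small nucleolar ribonucleoproteins (chromosome 10, 102152389 to 102163870), read 168, 406 and 273 units. It was 2.42-fold lower with nm23-H1 than with nm23-H2 and 1.63-fold lower than with vector. Its other probe sets gave smaller differences, -0.33 and -0.12 against nm23-H2 and -0.40 and 0.04 against vector. TCOF1, the treacle protein that helps RNA polymerase I start on ribosomal DNA, had the same order at 89.6, 167 and 127 units, with nm23-H1 lowest and nm23-H2 highest. Its dimmer probe set was below the floor with nm23-H1 and read 36.3 units with nm23-H2 and 40.7 with the vector.

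RNA polymerase I and its factors did not share a direction. POLR1E and POLR1C, polymerase subunits, were the members with the largest differences above vector on the nm23-H1 array. POLR1E read 121 units with nm23-H1, 157 with nm23-H2 and 81.5 with the vector, 1.48-fold and 1.93-fold the vector level. The gene lies on chromosome 9 (37485948 to 37503697), where its 50 nearest measured neighbours run from CNTFR to HNRNPK. They also read higher with nm23-H1 than with vector, with a median of 0.29. Of the 50, 34 were above 0 (against 49.6% of all genes). At least 2-fold higher were 5 (against 2.14%), and 0 were at least 2-fold lower (against 1.73%). With nm23-H2 the neighbours had a median of 0.04 against vector, 0.09 above that of all genes, with 27 of 50 above 0 (against 40.1%). In that comparison 8 of 50 were at least 2-fold higher (against 3.59%) and 1 was at least 2-fold lower (against 3.61%). For the other 28 members the neighbours' median for nm23-H1 against vector lay between -0.07 and 0.16. The part of this stretch in the POLR1E difference was not tested. Without POLR1E the members' medians were -0.31 (nm23-H1 against vector), 0.04 (nm23-H2 against vector) and -0.41 (nm23-H1 against nm23-H2).

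POLR1C, a subunit shared with RNA polymerase III, read 176 units with nm23-H1, 133 with nm23-H2 and 126 with the vector. Its second probe set read 132, 118 and 133 units, level between nm23-H1 and vector. POLR1B, a large subunit of the polymerase, was dim and nearly level at 45.8, 44.1 and 48.7 units. UBTF, the factor that keeps ribosomal DNA open for transcription, read 68.8, 72.8 and 88.6 units, highest with the vector, at -0.36 and -0.28 against it. Its other probe set was below the floor with nm23-H1 and read 30.9 units with nm23-H2 and 43.7 with the vector.

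The enzymes and ribonucleoproteins that modify ribosomal RNA differed little. FBL, fibrillarin, the methyltransferase of box C/D particles, read 1183 units with nm23-H1, 1469 with nm23-H2 and 1248 with the vector. GAR1 and NHP2, proteins of the pseudouridine-forming box H/ACA particles, read 56.2, 67.7 and 63.3 units and 1206, 1115 and 1228 units. NOP2, a methyltransferase of large-subunit RNA, read 260, 309 and 242 units. Against vector these 4 genes lay between -0.17 and 0.10 with nm23-H1 and between -0.14 and 0.35 with nm23-H2, with NOP2 at 0.35 about 1 probe error SD above vector and the others below that.

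All 6 genes of small-subunit processing were lower with nm23-H1 than with nm23-H2 (against 39.3% of all genes), with a median of -0.47. Of these, BYSL was level at 214 and 214 units, and the probe sets of RRP12 disagreed, as described below. TSR1, a late small-subunit assembly factor related to GTPases (chromosome 17, 2322396 to 2336457), read 110 units with nm23-H1, 238 with nm23-H2 and 171 with the vector. It was 2.16-fold lower with nm23-H1 than with nm23-H2 and 1.55-fold lower than with vector. A second probe set had the same order at 59.1, 112 and 99.5 units (-0.93 for nm23-H1 against nm23-H2), while the remaining one was dim and nearly level at 44.8, 48.6 and 45.7.

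RRP12, an export factor of pre-ribosomal subunits, read 32.6 units with nm23-H1, 78.0 with nm23-H2 and 50.8 with the vector. The nm23-H1 value was close to the floor of 28.3 units. Its 3 probe sets disagreed. Between nm23-H1 and vector they gave -0.64, -0.85 and, with the vector below the floor, at least 0.70. For nm23-H2 against vector they gave 0.62, -0.89 and, again with the vector below the floor, at least 0.74. The brightest gave -1.26 for nm23-H1 against nm23-H2 where the others gave 0.04 and -0.04, so no direction can be given for RRP12. RRP9, a protein of the U3 particle, read 87.4 units with nm23-H1, 124 with nm23-H2 and 86.0 with the vector, higher on the nm23-H2 array alone (0.53 against vector).

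IMP4, another U3 protein, read 541, 731 and 651 units in the same order of arrays. BYSL, bystin, read 214, 214 and 246 units, with both transfectants at -0.20 against vector. PNO1, an RNA-binding factor of the pre-small subunit, read 101, 118 and 93.2 units. Its second probe set had that order too, at 147, 176 and 117. These 3 genes differed from vector by -0.27 to 0.12 with nm23-H1, less than the probe error.

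Of the 5 large-subunit assembly factors, 4 were lower with nm23-H1 than with vector (against 47.7% of all genes), with a median of -0.32. That median is the value of NOP16, whose probe sets disagreed, as described below. RRP1B, at -0.14, was within the probe error. RRS1, known in yeast as a factor that brings the small ribosomal RNA of the large subunit into place, read 56.0 units with nm23-H1, 80.6 with nm23-H2 and 81.7 with the vector (-0.54 against vector). MRTO4, whose yeast counterpart holds the place of a stalk protein, had the same shape at 230, 312 and 314 units (-0.45). In both, nm23-H2 and vector were level and nm23-H1 stood below.

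NIP7, a factor of large-subunit RNA processing, was different, with 53.9 units with nm23-H1, 84.5 with nm23-H2 and 53.02 with the vector, 1.59-fold higher with nm23-H2 than with vector. NOP16 read 287, 374 and 357 units by its brightest probe set, whereas 2 others gave 0.31 and 0.35 for nm23-H1 against vector in place of -0.32, so its direction was not settled. RRP1B, a nucleolar partner of processing factors, read 241, 236 and 266 units. A dim probe set of RRP1B was above the floor only with the vector (50.6 units). DDX21 and DDX10, RNA helicases of early processing, were both lower with nm23-H1 than with vector. They read 120, 149 and 148 units and 51.4, 54.7 and 70.5 units, differences of -0.31 and -0.46.

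MYC itself (chromosome 8, 127735434 to 127742951) read 197 units with nm23-H1, 284 with nm23-H2 and 290 with the vector. The nm23-H1 array was 1.47-fold lower than vector and 1.44-fold lower than nm23-H2, by more than 1 probe error SD in both. The nm23-H2 and vector arrays differed by -0.03, or 0.30 with the values as deposited. MYC had 1 probe set, so no second reading was available.

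ODC1, ornithine decarboxylase, the rate-limiting enzyme of polyamine synthesis and a textbook MYC target (chromosome 2, 10439968 to 10448327), had the largest difference of the 29. It read 780 units with nm23-H1, 2766 with nm23-H2 and 1045 with the vector. The nm23-H2 array was 2.65-fold above vector, and the nm23-H1 array 3.55-fold below nm23-H2. Both differences were past 2-fold under all 10 other settings, and nm23-H1 against vector was -0.42.

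PA2G4, a growth regulator that binds the receptor ERBB3 and pre-ribosomes, read 327 units with nm23-H1, 505 with nm23-H2 and 520 with the vector, so the nm23-H1 array was 1.59-fold below vector. Its dimmer probe set read 171, 168 and 191 units and gave -0.15 in place of -0.67. CDK4, the cyclin D-dependent kinase, went against most of the set, with 1070 units with nm23-H1, 924 with nm23-H2 and 967 with the vector. Its differences from vector, 0.15 and -0.07, were within the probe error.

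**Figure D4:**
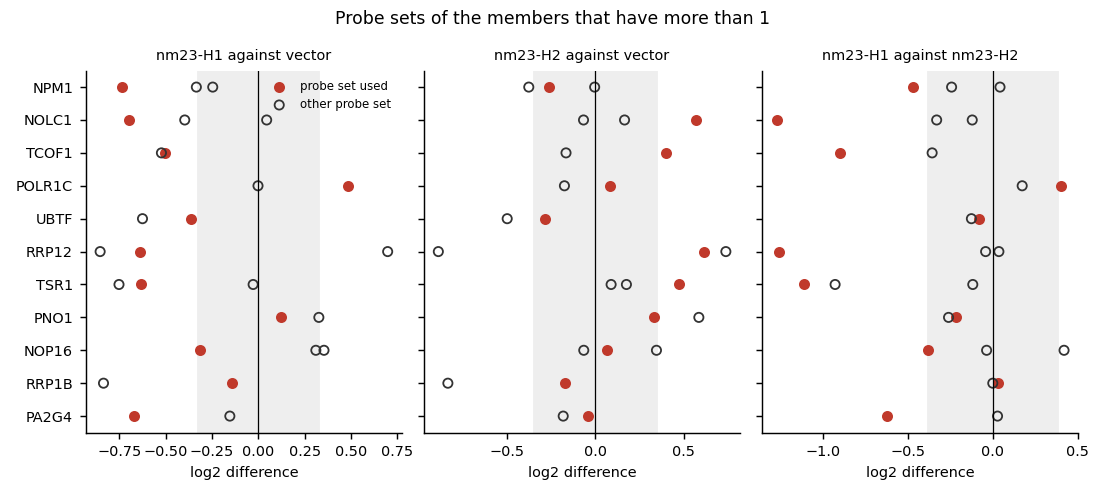
The log2 difference by each probe set above the floor on at least 1 array, for the 11 genes with more than 1 probe set, in the 3 comparisons, with the probe set used filled, the others open, and the probe error shaded. For nm23-H1 against vector the open and filled marks lie on the same side of 0 for 7 of 11 genes, and those of RRP12 lie on both sides, at -0.64, -0.85 and 0.70, the last a lower bound because the vector was below the floor.

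Counted by probe set, 33 of 45 above the floor were lower with nm23-H1 than with vector, against 46.8% of all probe sets of a single gene, with a median of -0.27. For nm23-H2 against vector 23 of 45 were below 0 (against 53.6%), and in the comparison of nm23-H1 with nm23-H2 it was 34 of 45 (against 39.3%). Signs agreed within a gene for 7 of 11 genes, 6 of 11 and 6 of 10 in the 3 comparisons. The rate over all genes with several probe sets was not computed, so these counts have no background beside them. Probe sets of 1 gene share its transcript and are not independent readings.

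The promoters of 4 members are shown because MYC and MAX are known to bind the E-box CACGTG, and CACGCG is a known variant of it. NPM1 and TSR1 were at least 1.5-fold lower with nm23-H1, ODC1 had the largest difference, and CDK4 had the most E-boxes. Each is the 250 bases before a RefSeq transcript start in assembly GRCh38.p14, 5' to 3' on the gene's strand, with CACGTG or CACGCG (or CGCGTG, its other strand) in capitals. They lie at chr5:171387599-171387848 (plus strand), chr17:2336458-2336707 (minus), chr2:10448328-10448577 (minus) and chr12:57752311-57752560 (minus), in the order printed. Where the table lists several starts for a gene the one listed first was used, and for NPM1 it lies inside the gene's span given above, as also for UBTF and BYSL, which are not printed.
NPM1: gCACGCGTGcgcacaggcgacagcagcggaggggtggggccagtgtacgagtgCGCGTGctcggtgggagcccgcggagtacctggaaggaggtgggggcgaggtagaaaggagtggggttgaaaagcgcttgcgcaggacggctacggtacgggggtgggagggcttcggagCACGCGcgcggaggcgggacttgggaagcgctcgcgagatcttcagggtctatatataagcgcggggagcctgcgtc
TSR1: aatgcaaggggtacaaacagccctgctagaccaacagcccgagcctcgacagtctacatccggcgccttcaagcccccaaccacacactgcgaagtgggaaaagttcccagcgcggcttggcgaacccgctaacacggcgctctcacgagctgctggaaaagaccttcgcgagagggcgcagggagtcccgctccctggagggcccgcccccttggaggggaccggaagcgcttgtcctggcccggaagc
ODC1: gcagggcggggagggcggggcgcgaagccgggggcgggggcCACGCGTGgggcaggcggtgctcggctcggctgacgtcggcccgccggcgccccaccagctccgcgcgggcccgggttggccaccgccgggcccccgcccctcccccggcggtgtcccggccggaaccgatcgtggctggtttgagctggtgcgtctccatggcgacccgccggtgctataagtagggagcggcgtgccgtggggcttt
CDK4: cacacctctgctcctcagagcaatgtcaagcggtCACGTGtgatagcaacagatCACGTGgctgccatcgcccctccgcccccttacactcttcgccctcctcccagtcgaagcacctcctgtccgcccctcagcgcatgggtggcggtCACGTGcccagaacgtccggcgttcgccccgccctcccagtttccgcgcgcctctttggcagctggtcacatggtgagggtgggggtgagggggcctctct

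Promoters of 22 of the 29 members were matched, and none was for POLR1E, NOLC1, TCOF1, RRP12, RRP1B, RRS1 and MYC. CACGTG was found in 2 of the 22 (9.09%), CDK4 and IMP4, against 8.97% of 6580 measured genes and 6.49% of all 27305 promoters. CDK4 held it 3 times, starting 216, 196 and 101 bases before the start. CACGCG, searched on both strands, was found in 8 of 22 (36.4%), namely NPM1, POLR1C, UBTF, FBL, MRTO4, DDX21, DDX10 and ODC1, against 14.8% of measured genes and 9.62% of all promoters. In CACGCGTG, as in NPM1 and ODC1, both strands match and overlap, and a promoter was counted once however many matches it held. Median GC content was 65.2% in the members and 64.4% in measured genes, and 16.6% of the 5043 measured genes within the members' GC range of 53.2% to 78.8% held CACGCG. The 8 members with CACGCG had a median of -0.39 for nm23-H1 against vector (7 below 0), and the 14 without had -0.13 (9 below 0), with ranges that overlapped. The medians were 0.00 and 0.08 for nm23-H2 against vector, and -0.32 and -0.33 in the comparison of nm23-H1 with nm23-H2. Members without a matched promoter are in neither group. For nm23-H1 against vector NOLC1, RRP12, MYC, RRS1 and TCOF1 stood at -0.70, -0.64, -0.55, -0.54 and -0.50 by the probe set used. RRP1B stood at -0.14 and POLR1E at 0.57. A link between motif and difference was not tested.

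Further genes of the pathway were taken from 8 lists, without the 38 genes chosen by name, and some lists shared genes. Among assembly factors of the large subunit, 25 of 33 were lower with nm23-H1 than with vector (against 47.7% of all genes), with a median of -0.28. At least 2-fold lower were 2 (against 1.73%), RRP1 and LSG1. LSG1 was 2.22-fold below vector with nm23-H1 and 2.19-fold below it with nm23-H2. A second LSG1 probe set gave -0.91 and -0.22. Their medians were -0.05 for nm23-H2 against vector and -0.15 in the comparison of nm23-H1 with nm23-H2. RRP1, a nucleolar assembly factor, was at the floor with nm23-H1, and read 124 units with nm23-H2 and 66.7 with the vector, so the nm23-H1 array was at least 2.36-fold below vector and at least 4.36-fold below nm23-H2. PES1, a partner of BOP1, read 125, 310 and 250 units, and LAS1L, an endonuclease subunit, 70.9, 168 and 113, 2.48-fold and 2.37-fold lower with nm23-H1 than with nm23-H2. WDR18 read 345, 490 and 199 units, 1.73-fold above vector with nm23-H1 and 2.46-fold above it with nm23-H2. It too was lower with nm23-H1 than with nm23-H2. PES1 lies on chromosome 22 (30576625 to 30607013), where its 50 measured neighbours were 0.20 below the median of all genes for nm23-H1 against vector, and their part was not tested.

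Factors of the small-subunit processome had medians of -0.12 (nm23-H1 against vector) and 0.31 (nm23-H2 against vector). With nm23-H2, 18 of 24 were above vector, against 40.1% of all genes. PWP2, a core processome protein, was at the floor with the vector and read 73.4 units with nm23-H1 and 96.4 with nm23-H2, at least 2.59-fold and 3.40-fold higher. NOL6 read 117 and 130 units with nm23-H1 and nm23-H2 and 63.4 with the vector, and its neighbours on chromosome 9 stood 0.64 and 0.59 above all genes in the same comparisons. RRP7A read 150, 337 and 181 units, and its neighbours on chromosome 22 stood 0.42 below all genes for nm23-H1 against vector.

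Polymerase I and III genes had medians of 0.06 and -0.04 against vector for nm23-H1 and nm23-H2, and 0 of 15 differed 2-fold in any comparison, where 1.73% to 3.81% of all genes did in each direction. Factors of RNA modification had medians of -0.13 and 0.02. Among these 12, SNU13, a protein of box C/D particles, read 150 units with nm23-H1, 194 with nm23-H2 and 327 with the vector, while its neighbours on chromosome 22 stood 0.47 below all genes for nm23-H1 against vector. EMG1, a ribosomal RNA methyltransferase, read 1005, 1082 and 529 units, about level between the transfectants. DIMT1, a dimethyltransferase, read 33.4, 76.4 and 58.2 units, but its brighter _x_at probe sets were nearly level. Nucleases of pre-ribosomal RNA had medians of -0.08 and -0.14. Among them DIS3, an exosome nuclease, read 77.5 units with nm23-H1, was below the floor with nm23-H2 and read 35.8 with the vector. A second DIS3 probe set was below the floor on all 3 arrays. RPP30, a subunit of RNase P, read 219, 130 and 272 units.

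Partners and antagonists of MYC had a median of -0.23 for nm23-H1 against vector, with 12 of 16 lower (against 47.7% of all genes) and 0 past 2-fold (against 2.14% higher and 1.73% lower). The other comparisons showed no lean, with medians of 0.00 for nm23-H2 against vector (7 of 16 below 0) and 0.02 between nm23-H1 and nm23-H2 (8 of 16 below 0). MAX, named after its values were seen, read 353 units with nm23-H1, 219 with nm23-H2 and 431 with the vector, 1.97-fold below vector on the nm23-H2 array. AURKA, a mitotic kinase that stabilises MYC family proteins, read 329, 197 and 436 units, and MYCBP2, a ubiquitin ligase that binds MYC, 45.0, 90.6 and 83.4. A second AURKA probe set agreed at -0.95 for nm23-H2 against vector, and another, dim and below the floor with the vector, gave at least 0.20.

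Targets of MYC outside the nucleolus were 38 measured genes with medians of -0.05 and 0.17 against vector for nm23-H1 and nm23-H2. NME1 was on this list too. The 4 with the largest differences were higher with nm23-H2, and 3 of them are known as genes that MYC represses. GADD45A, a stress-induced growth arrest gene, read 31.3 units with nm23-H1, 155 with nm23-H2 and 34.5 with the vector. NDRG1 read 687, 2813 and 609 units, and CDKN1A, the cyclin-dependent kinase inhibitor p21, 75.1, 290 and 114. HK2, hexokinase, a target that MYC activates, read 54.0, 151 and 65.6 units, 2.31-fold above vector with nm23-H2. A second, dim HK2 probe set was below the floor with nm23-H1 and nm23-H2 and read 30.4 units with the vector. Beside ODC1, SAT1, which breaks polyamines down, was the gene of polyamine metabolism past 2-fold. It read 482, 767 and 300 units, 2.55-fold above vector with nm23-H2, and all 3 of its probe sets were at least 1.35 higher on the log2 scale. The 11 measured genes of that list had medians of 0.06 and 0.03 against vector.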

How the data were processed

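The table holds 1 intensity per probe set and array on a linear scale, deposited by the authors and made with MAS5 per the submitters' processing notes. Version, scaling target and detection calls are not given in the sources used here. Each array was multiplied (by 1.03, 0.881 and 1.11 for nm23-H1, nm23-H2 and vector) to bring its mean between the 2nd and 98th percentiles to their geometric mean. Values below the pooled median were set to it, and log2 was taken. For each gene the brightest of its probe sets was used, those not ending in _x_at first, among 19071 with 1 symbol. Of the rest, 1043 had several symbols and 2169 none. Positions, neighbours (25 each side among measured genes) and promoters came from the RefSeq tables of GRCh38.p14. The members and lists were chosen with earlier results of these data known. All 29 members are named, NME1 and NME2 as a check of the labels, and from each list the genes at least 2-fold different in any comparison, at most 4 by size. MAX and LSG1 were named besides, after their values were seen. With 1 array per group no test was possible and the number of arrays limits the precision. The steps were tested on simulated data. Python 3.11.15, numpy 2.4.6, pandas 2.3.3 and matplotlib 3.10.9 were used.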

Additional observations from a re-analysis of the deposited data

How the results depend on the processing

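With 1 array per group no array could be left out, so each of 9 planned settings, and, chosen after seeing the data, scaling on the 2 arrays compared alone, was tried. The plain _at setting covered 15 members and the highest floor 28. No paired analysis was possible because each group held 1 array. Signs were kept under every setting for 21 of 29 members for nm23-H1 against vector (16 lower, 5 higher). For nm23-H2 against vector it was 13 (1 lower, 12 higher), and for nm23-H1 against nm23-H2 it was 20 (19 lower, 1 higher). Without scaling, 1 of 29 members was below 0 for nm23-H2 against vector (against 30.8% of all genes). For nm23-H1 against nm23-H2 it was 28 (against 55.2%). That setting alone allowed at most 1 lower in the former and at most 1 higher in the latter, so these splits show no direction. The share of all genes that kept their sign was not counted. With the values as deposited, the medians of the members were -0.20, 0.40 and -0.60 for the 3 comparisons, those of all genes 0.08, 0.17 and -0.07, and 3 members were at least 2-fold above vector on the nm23-H2 array. The shares of all genes at least 2-fold higher and lower were then 2.63% and 1.17%, 7.98% and 1.35%, and 2.15% and 6.28%, where the scaled values gave 2.14% and 1.73%, 3.59% and 3.61%, and 3.76% and 3.81%. With probe sets whose names end in plain _at, which 15 members had, the medians were -0.17 (nm23-H1 against vector) and -0.25 (nm23-H1 against nm23-H2). In the latter comparison 2 of the 15 were 2-fold lower (against 3.48% of all genes). RRP12 turned there to 0.036 (nm23-H1 against nm23-H2) and to -0.89 (nm23-H2 against vector). With the mean of all probe sets 1 member was 2-fold lower with nm23-H1 than with nm23-H2 (against 2.78% of all genes). With 1.5-fold in place of 2-fold, 5, 4 and 7 members were past it. The mean of the members for nm23-H2 against vector was 0.18. The causes were not tested. With each probe set as a unit, added after seeing the data, the median for nm23-H1 against nm23-H2 was -0.26. A median counted as moved when it differed by over 0.1. Members near the floor, such as RRP12, POLR1B, DDX10 and NIP7, are the least certain.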

Other observations

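Translation initiation and elongation factors were 38 measured genes with medians of -0.13 and 0.05 against vector for nm23-H1 and nm23-H2, and 27 of 38 were below 0 with nm23-H1, against 47.7% of all genes. EIF3D, an initiation factor subunit on chromosome 22, read 746 units with nm23-H1, 1955 with nm23-H2 and 1505 with the vector, so the nm23-H1 array was 2.02-fold below vector. Its 50 measured neighbours stood 0.34 below the median of all genes in that comparison. EIF2S1, the regulated subunit of the initiator tRNA carrier on chromosome 14, read 414, 749 and 883 units, 2.13-fold below vector on the nm23-H1 array, and its neighbours stood 0.23 below. The other 2 EIF2S1 probe sets gave -0.73 and -0.71. EIF2B3, a subunit of its exchange factor, read 197, 402 and 250 units. The part of the neighbours in these differences was not tested.

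Of a list of p53, its regulators and its targets in nucleolar stress, 8 genes were measured, with medians of -0.01 and 0.23 against vector for nm23-H1 and nm23-H2. Apart from CDKN1A and GADD45A, which are described above and belong to both lists, CDKN2A was at least 2.70-fold above vector on the nm23-H1 array (76.5 and 49.6 units with nm23-H1 and nm23-H2, at the floor with the vector). Its brighter _x_at probe set gave 0.20 for that comparison, and its neighbours on chromosome 9 stood 0.42 above all genes.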
